A study of Rattus norvegicus with 12 samples.

Results

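The 10 genes described here are the heat shock factor HSF1 and 9 cytosolic or mitochondrial chaperones and cochaperones, out of 20263 genes in the deposited tables. The rule that lists them uses identifiers and no measured value, but it was written with earlier results of these data known. All 10 passed the filter on low values. The tables carry identifiers alone, and the pairing of these identifiers with symbols came with the gene set. The identifiers have the prefix Ensembl uses for human genes, while the samples are labelled rat, and the files do not settle which species' genes were counted. RNA-seq was done on H9C2, a cell line from embryonic rat heart that the labels call cardiomyocytes. The 4 groups had 3 biological replicates each, all wild type and collected after 48 h. Ctrl cells were in medium with 5.5 mM glucose and HG cells in medium with 100 mM glucose, both without drug. HG-Res cells were given 5 µM resveratrol, a plant polyphenol, in 100 mM glucose. HG-Res-SIRT7-Inh cells were in the same glucose and were given 5 µM resveratrol and 5 µM of a compound that the labels call a SIRT7 inhibitor and name SirReal2, which is otherwise known as an inhibitor of SIRT2. The labels describe no osmotic control, no vehicle and no group given the inhibitor alone. The cell type was not checked against marker genes, because the identifiers could not be paired with names beyond these 10.

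Chaperones bind unfolded or unstable proteins and help them to fold, to reach their place in the cell or to be degraded. In unstressed cells HSF1 is held inactive by chaperones; when unfolded protein occupies those chaperones, HSF1 forms trimers, enters the nucleus and binds heat shock elements, which are inverted repeats built on the letters GAA, in the promoters of chaperone genes. HSF1 is regulated mostly as a protein, by release from chaperones, phosphorylation and acetylation, so that its mRNA can stay level while its targets move. In heart muscle, where proteins are under constant mechanical load, HSP70, the small heat shock proteins and BAG3 are known for their part in protein quality control.

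Promoters are shown for Hspa1a, Hspa8 and Dnajb1, and for Hsph1, whose promoter holds a match to a long form of the heat shock element. RefSeq's rat table (build GRCr8) held an entry for 7 of the 10 genes by symbol. Hsf1, Hspa1b and Hsp90aa1 had none. The 250 bases before the annotated start are printed 5′ to 3′, and capitals mark matches to the letters of heat shock elements, short or long. The short forms searched were GAANNTTC and TTCNNGAA, where N is any base, and each reads the same on both strands. The long forms add a further unit to these, GAA after a gap of NN to the first or TTC after the same gap to the second. The long forms are reverse complements of each other, so both strands were searched, and each contains both short forms.
Hspa1a (chr20:3859506-3859755, plus strand): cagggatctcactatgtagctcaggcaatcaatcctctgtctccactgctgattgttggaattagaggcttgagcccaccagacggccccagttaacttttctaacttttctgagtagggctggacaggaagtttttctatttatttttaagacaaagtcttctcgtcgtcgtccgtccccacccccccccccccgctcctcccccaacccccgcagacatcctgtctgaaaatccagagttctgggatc
Hspa8 (chr8:50080264-50080513, plus strand): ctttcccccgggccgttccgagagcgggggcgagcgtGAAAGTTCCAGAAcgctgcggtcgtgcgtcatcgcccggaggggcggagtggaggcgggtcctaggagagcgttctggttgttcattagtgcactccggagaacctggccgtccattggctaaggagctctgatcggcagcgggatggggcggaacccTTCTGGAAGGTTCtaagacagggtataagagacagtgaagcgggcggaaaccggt
Hsph1 (chr12:10427118-10427367, plus strand): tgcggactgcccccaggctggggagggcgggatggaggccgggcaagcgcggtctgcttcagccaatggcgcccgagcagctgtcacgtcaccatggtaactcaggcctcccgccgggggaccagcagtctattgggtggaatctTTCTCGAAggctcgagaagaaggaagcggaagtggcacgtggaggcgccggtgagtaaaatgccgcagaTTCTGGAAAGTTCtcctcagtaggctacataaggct
Dnajb1 (chr19:41431142-41431391, minus strand): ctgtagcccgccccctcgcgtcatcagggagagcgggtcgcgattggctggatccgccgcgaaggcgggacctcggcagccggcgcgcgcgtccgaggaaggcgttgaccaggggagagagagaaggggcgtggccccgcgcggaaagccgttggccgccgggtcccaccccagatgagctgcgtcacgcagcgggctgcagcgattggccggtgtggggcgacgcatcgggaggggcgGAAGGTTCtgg
A long form was found in 3 of the 7 promoters (Hspa8, Hsph1 and Hspd1), and in 0.663% of the 33469 rat promoters searched over the same length. Hspa8 held GAAAGTTCCAGAA from -213 to -201 and TTCTGGAAGGTTC from -55 to -43, counted from the start with -1 as the base before it. Hsph1 held TTCTGGAAAGTTC from -36 to -24. A short form was found in 6 of the 7, against 13.5% of all promoters. Dnajb1 held GAAGGTTC from -11 to -4, and Hspa1a held none in this window. A match describes letters in the rat reference, and no match says only that these letters are not in this window.

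Levels are in CPM (counts scaled by library size, with no division by gene length), so each gene, and the ratio within the HSP70 pair, is compared between libraries, and no gene's level is ranked against another's. Depth was 30.29 to 33.17 M reads per library, and the lowest value of any of the 10 genes, 22.53 CPM, corresponds to about 701 reads. The spread between replicates was unequal: over all 12854 genes tested the median SD on the log2(CPM + 1) scale was 0.242 in HG-Res-SIRT7-Inh against 0.132 in HG and 0.071 in HG-Res, and over the 10 genes 0.264 against 0.138 and 0.06. In HG-Res-SIRT7-Inh replicate 3, 7 of the 10 genes were at the highest or lowest value of the 9 high-glucose libraries, as were 68% of all genes. HG replicate 2 was at an extreme for 41.3% of all genes and for 1 of the 10, and HG-Res-SIRT7-Inh replicate 1 for 26% and for 5. HG-Res-SIRT7-Inh replicate 3 and HG replicate 2 were most often at an extreme over all genes. Results are therefore also given without these libraries where that changes them.

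**Figure D1:**
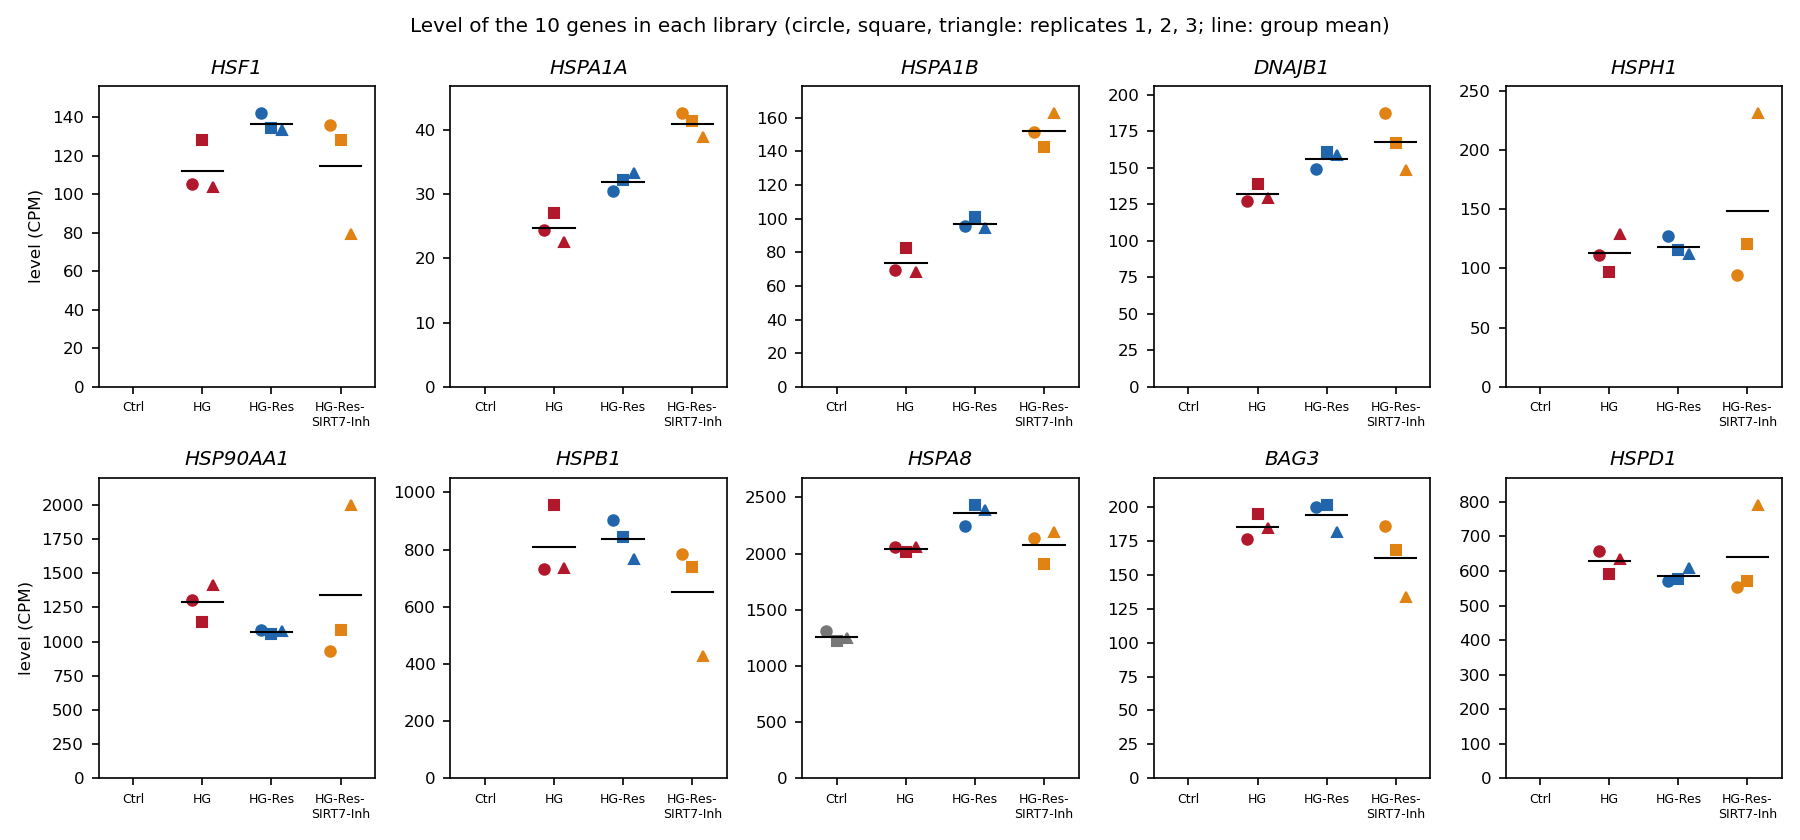
Level in CPM (vertical axes, from 0) of each of the 10 genes in every library, by group; symbols are replicates 1 to 3 and lines are group means. HSPA1A and HSPA1B step upward from HG to HG-Res to HG-Res-SIRT7-Inh without overlap, and HSPA8 is the only panel with Ctrl values, 1223.31 to 1309.32 CPM.

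In high glucose the constitutive HSP70, HSPA8, was higher than in Ctrl. HSPA8 (ENSG00000109971) encodes the cytosolic HSC70, which folds new proteins and uncoats clathrin vesicles in unstressed cells. It was at 1309.32, 1223.31 and 1244.18 CPM in Ctrl and at 2054.87, 2017.07 and 2059.87 CPM in HG. Every HG library was above every Ctrl library, and the ratio of the means was 1.62. The authors' deposited table gave a log2 fold change of 0.76 with a q-value of 4.96e-26, the lowest q-value among its 95 genes marked as higher in HG, and HSPA8 ranked 54 among those by fold change. HSPA8 has Ctrl values here because it passed the thresholds for that table, so its separation is a description. An exact two-sided permutation test on the same libraries gave p = 0.1, the smallest that 3 against 3 allows, and adds no support. In bulk RNA, a change in the RNA per cell and a change in the share of cells of a kind cannot be told apart.

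The authors' deposited table for this comparison holds 354 genes, each with an unadjusted p-value under 0.05 and a fold change over 1.5, which is 1.75% of the genes in the full tables. HSPA8 was the 1 member listed. The other 9 are not among these genes: HSF1, HSPA1A, HSPA1B, DNAJB1, HSPH1, HSP90AA1, HSPB1, BAG3 and HSPD1. They were not analysed in Ctrl here.

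With resveratrol added to high glucose, 5 of the 10 genes lay above HG in every library and 1 lay below, but none passed the test across all genes. In limma with Benjamini-Hochberg adjustment over 12854 genes, 0 of the 10 reached an adjusted p of 0.05, where 0.708% of all genes did. At an unadjusted p under 0.05 there were 4 (HSPA1A, HSPA1B, DNAJB1 and HSPA8), against 10.7% of all genes tested. The q-values in the authors' deposited table were under 0.05 for 2 (HSPA1A and HSPA1B), against 5.38% of the genes there. The replicate values did not overlap in 6 of the 10, against 29.9% of all genes tested (15% higher and 14.8% lower). The median log2 change of the 10 was 0.141 and that of all genes -0.001.

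HSPA1A and HSPA1B encode the stress-inducible HSP70, whose near-identical genes are neighbours in the genome and are textbook targets of HSF1. HSPA1A (ENSG00000204389) was at 24.43, 26.95 and 22.53 CPM in HG and at 30.38, 32.09 and 33.25 CPM in HG-Res. HSPA1B (ENSG00000204388) was at 69.58, 82.73 and 68.28 CPM in HG and at 95.39, 100.68 and 94.18 CPM in HG-Res. All HG-Res libraries were above all HG libraries for both genes. The log2 change was 0.36 ± 0.1 for HSPA1A (SE, limma adjusted p = 0.205, 95% interval 0.13 to 0.59). For HSPA1B it was 0.4 ± 0.11 (limma adjusted p = 0.184, 95% interval 0.15 to 0.64). Without HG-Res-SIRT7-Inh replicate 3 (a library of neither group that enters the shared estimate of spread), both passed at the same size (limma adjusted p = 0.0376 and 0.0337), as did 6.23% of all genes, while a fit limited to the compared groups passed neither (limma adjusted p = 0.0592 and 0.0523).

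Of the 3 HSP70 partners, DNAJB1 alone had HG-Res values clear of HG. DNAJB1 (ENSG00000132002), the HSP40 that delivers substrates to HSP70 and starts its ATPase cycle, was at 127.62, 138.87 and 129.38 CPM in HG and at 149.02, 160.56 and 159.17 CPM in HG-Res. The DNAJB1 groups did not overlap, and the log2 change was 0.24 ± 0.11 (limma adjusted p = 0.463). HSPH1 (ENSG00000120694), the HSP110 nucleotide exchange factor that resets HSP70, overlapped between the groups at 97.42 to 129.45 CPM in HG and 112.1 to 127.33 CPM in HG-Res. BAG3 (ENSG00000151929), which links HSP70 to small heat shock proteins and to selective autophagy, also overlapped, at 176.76 to 194.8 and 181.3 to 201.57 CPM.

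HSPA8 stood at 2244.03, 2433.02 and 2391.12 CPM in HG-Res, above every HG library, with a log2 change of 0.2 ± 0.08 (limma adjusted p = 0.367). HSP90AA1 (ENSG00000080824), the inducible HSP90 that holds HSF1 and many kinases and receptors, was at 1304.52, 1141.89 and 1416.43 CPM in HG and at 1081.51, 1052.11 and 1073.85 CPM in HG-Res. It was the 1 member with all HG-Res libraries below HG, by a log2 change of -0.26 ± 0.23 (limma adjusted p = 0.787). With 7 libraries, leaving out HG-Res-SIRT7-Inh replicate 3 and also HG replicate 2, 21.2% of all genes passed and 5 of the 10 did: HSF1, HSPA1A, HSPA1B and DNAJB1 were higher and HSP90AA1 was lower, at a log2 change of -0.35 (limma adjusted p = 0.0151). These libraries were left out because they stand apart from the rest over all genes. For each of these 5 genes HG replicate 2 also held the HG value nearest to HG-Res, so leaving it out enlarged every change. It was the highest HG value for HSF1 (128.02 CPM), HSPA1A (26.95 CPM), HSPA1B (82.73 CPM) and DNAJB1 (138.87 CPM). For HSP90AA1 it was the lowest (1141.89 CPM). Without HG replicate 2 alone 0 of the 10 passed.

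HSF1 itself (ENSG00000185122), the transcription factor, was at 105.01, 128.02 and 103.7 CPM in HG and at 141.9, 134.45 and 133.35 CPM in HG-Res. The groups did not overlap, and the log2 change of 0.29 ± 0.19 had a 95% interval of -0.14 to 0.71 (limma adjusted p = 0.681). HSPB1 (ENSG00000106211), the small heat shock protein HSP27 that holds unfolded proteins without ATP, overlapped at 730.26 to 956.14 CPM in HG and 766.44 to 901.44 CPM in HG-Res. HSPD1 (ENSG00000144381), the mitochondrial chaperonin HSP60, overlapped at 591.64 to 657.57 and 569.78 to 609.81 CPM.

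**Figure D2:**
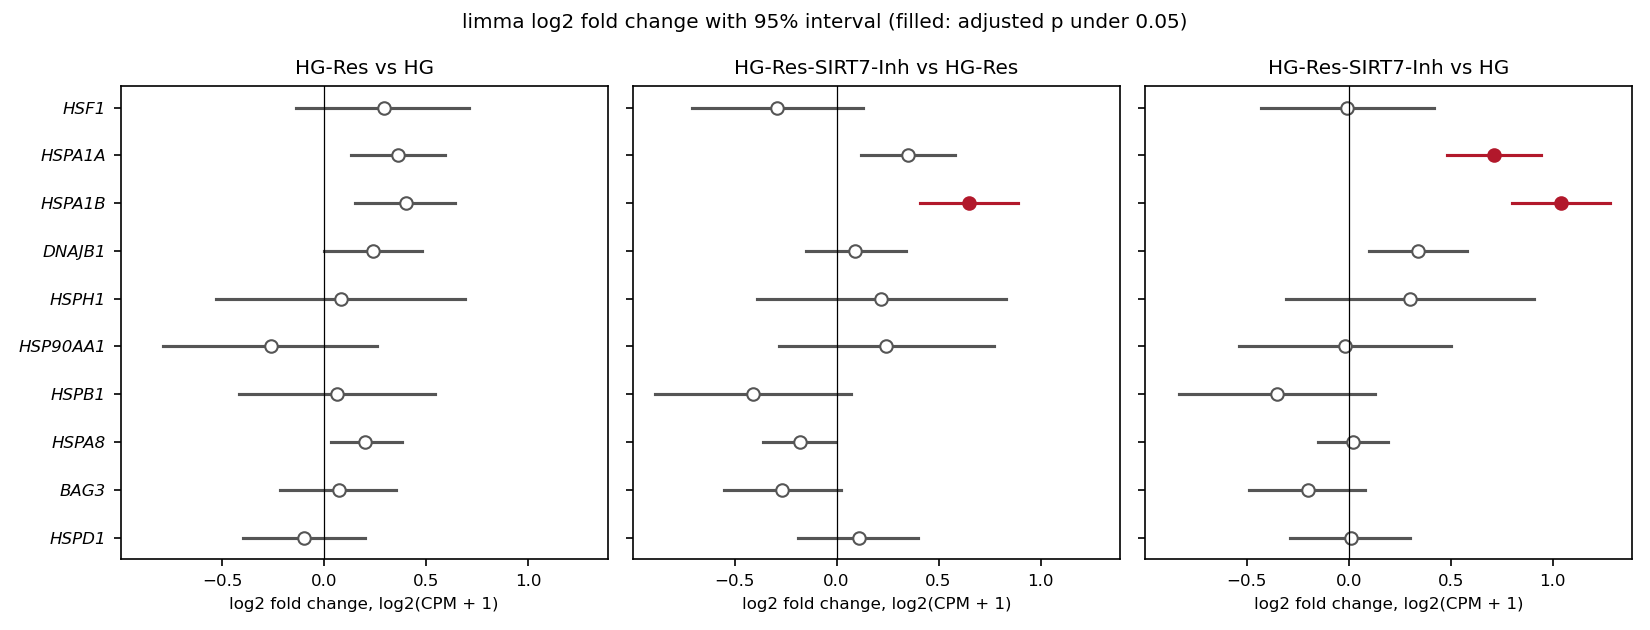
Log2 fold change of each gene on the log2(CPM + 1) scale (horizontal axes) with its 95% interval from limma, for the 3 comparisons among high-glucose groups; filled points passed an adjusted p of 0.05. Filled points appear for HSPA1B in the middle panel and for HSPA1A and HSPA1B in the right panel, where HSPA1B lies at 1.04.

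When the inhibitor was added to resveratrol, HSPA1B rose and no other member passed the test. HSPA1B went from 95.39, 100.68 and 94.18 CPM in HG-Res to 151.5, 142.42 and 162.52 CPM in HG-Res-SIRT7-Inh. The groups were far apart relative to their spread, at 96.8 ± 3.46 and 152 ± 10.1 CPM (SD, n = 3). The log2 change was 0.65 ± 0.11, a 1.565-fold rise (limma adjusted p = 0.00834). The adjusted p was 0.0508 without HG-Res replicate 1 and 0.0535 without HG-Res replicate 3, with changes of 0.64 and 0.63, and 0.00028 to 0.0535 over all alternatives. This was 1 of 10 members called, where 6.07% of all genes were called, 1.88% higher and 4.19% lower. In the authors' deposited table HSPA1B again was the 1 member with a q-value under 0.05, against 5.65% of the genes there.

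HSPA1A was also higher, at 30.38, 32.09 and 33.25 CPM in HG-Res and at 42.52, 41.32 and 38.89 CPM in HG-Res-SIRT7-Inh, and its groups did not overlap. Its log2 change of 0.35 ± 0.1 missed the threshold (limma adjusted p = 0.0778) and passed without HG-Res-SIRT7-Inh replicate 3 (0.0349, change 0.38). Reads of near-identical genes can be split between them by the authors' counting, so the pair was also summed. The sum was 129 ± 3.66 CPM in HG-Res and 193 ± 8.87 CPM in HG-Res-SIRT7-Inh (SD, n = 3), a log2 change of 0.58 ± 0.1 (limma adjusted p = 0.0106).

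The other 8 members gave no call. HSPA8 was at 2135.14, 1908.71 and 2189.75 CPM, below every HG-Res library, with a log2 change of -0.18 ± 0.08 (limma adjusted p = 0.183); it passed, at -0.22, with the same 7 libraries (limma adjusted p = 0.0416), where 18.8% of all genes did. DNAJB1, at 187.38, 167.24 and 148.23 CPM, overlapped HG-Res. BAG3, at 186.03, 168.2 and 133.64 CPM, overlapped too, with a log2 change of -0.27 ± 0.13 (limma adjusted p = 0.227). No overlap was seen in 3 of the 10: HSPA1A and HSPA1B, higher, and HSPA8, lower. Over all genes 33.7% had none, 17.7% higher and 16% lower. The median log2 change was 0.101 in the 10 and 0.04 in all genes.

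A single library set the level of several members in this group. HSPH1 was at 94.55, 120.3 and 231.09 CPM in replicates 1, 2 and 3, and HSP90AA1 at 928.87, 1088.17 and 1999.89 CPM. HSPD1 was at 554.43, 571.44 and 791.45 CPM. For these 3 genes replicate 3 was the highest of the 9 high-glucose libraries and replicate 1 the lowest. HSP90AA1 in replicate 2 was above every HG-Res library. Without replicate 3 the change from HG-Res turned from 0.22 to -0.15 for HSPH1 and from 0.24 to -0.09 for HSP90AA1. For HSPD1 it turned from 0.11 to -0.06, and none was past the threshold either way.
In HG-Res-SIRT7-Inh replicate 3 HSF1, at 79.23 CPM against 135.97 and 127.87 CPM in its replicates, was the lowest of the 9. HSPB1, at 427.55 CPM against 784.36 and 737.55 CPM, and BAG3 were lowest too. Without replicate 3 the change from HG-Res was smaller in these 3 genes, from -0.29 to -0.05 for HSF1, from -0.41 to -0.13 for HSPB1 and from -0.27 to -0.13 for BAG3, none past the threshold either way. In that library HSPA1A was at 38.89 CPM and HSPA1B at 162.52 CPM, both still above every HG and HG-Res library. The part of other features of that library in these values was not tested.

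**Figure D3:**
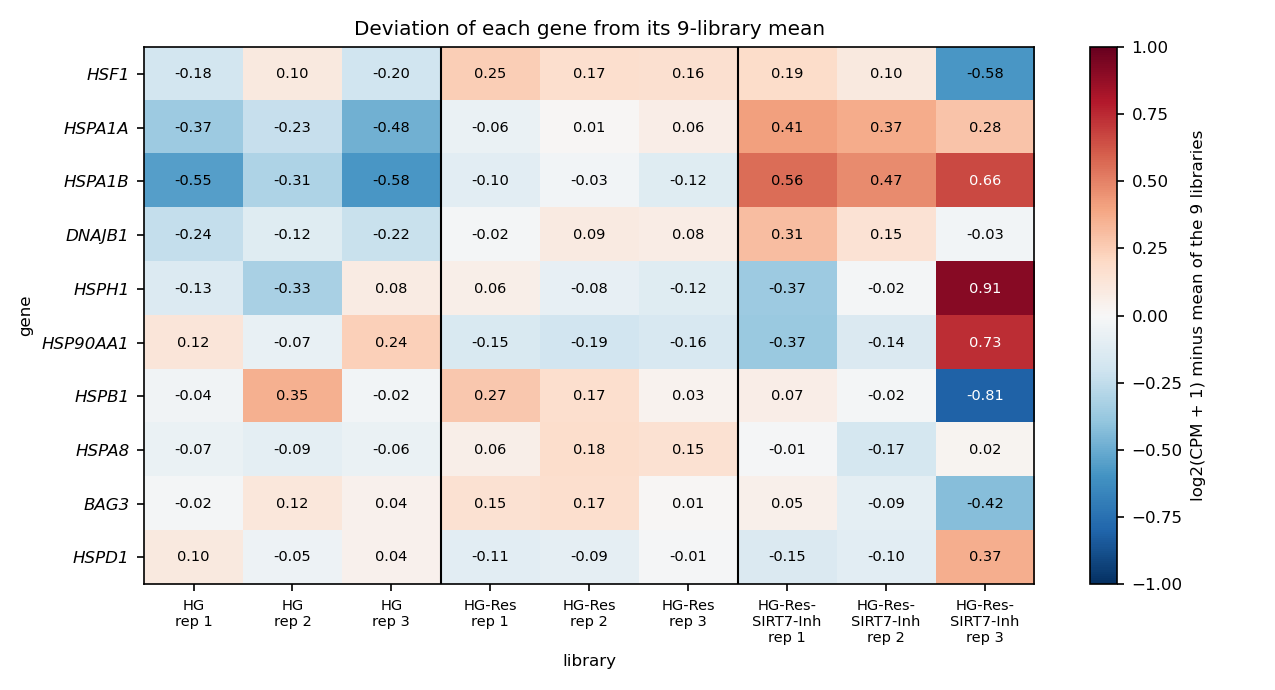
Deviation of each gene (rows) in each high-glucose library (columns) from its mean over the 9 libraries, in log2(CPM + 1) units, red above and blue below. The last column, HG-Res-SIRT7-Inh replicate 3, holds the extremes for HSPH1 (0.91), HSP90AA1 (0.74) and HSPB1 (-0.81), while the rows of HSPA1A and HSPA1B follow the groups.

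In the main fit, HG-Res-SIRT7-Inh set beside HG gave the highest count of calls, both among the 10 genes and among all genes tested. That order did not hold in every alternative. By the authors' q-values it gave the fewest genes, 1053, where HG-Res against HG gave 1091 and HG-Res-SIRT7-Inh against HG-Res gave 1145. By q-value 2 members were called in it, as in HG-Res against HG. With 2 groups alone it gave 420 genes, where those comparisons gave 596 and 414. It shares its libraries with the other 2 comparisons. HSPA1A and HSPA1B rose and the other 8 gave no call, 2 of 10 beside 10.8% of all genes called, 4.27% higher and 6.5% lower. HSPA1B was at 73.5 ± 7.99 CPM in HG and 152 ± 10.1 CPM in HG-Res-SIRT7-Inh (SD, n = 3), a log2 change of 1.04 ± 0.11 or 2.06-fold (limma adjusted p = 0.00042). By size of change it ranked 143 of 12854 genes. HSPA1A was at 24.6 ± 2.22 and 40.9 ± 1.85 CPM, a log2 change of 0.71 ± 0.1 or 1.64-fold (limma adjusted p = 0.00269). Both calls held under every alternative that was run, with adjusted p up to 0.0085 for HSPA1B and 0.0319 for HSPA1A, and the authors' deposited table gave q-values of 1.89e-07 and 0.000748, under 0.05 for these 2 members and for 5.2% of the genes there. The summed pair changed by 0.97 ± 0.1 (limma adjusted p = 0.000449).

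As the authors' counting assigned reads to this near-identical pair, HSPA1B was higher relative to HSPA1A in every HG-Res-SIRT7-Inh library. The part of that assignment in the ratio was not tested. The ratio of HSPA1B to HSPA1A, in CPM, was 2.85, 3.07 and 3.03 in HG and 3.14, 3.14 and 2.83 in HG-Res, and these groups overlapped. In HG-Res-SIRT7-Inh it was 3.56, 3.45 and 4.18, above all 6 other libraries. The exact two-sided permutation test gave p = 0.1 against each of the other groups, the smallest that 3 against 3 allows (0.15 after Benjamini-Hochberg adjustment over the 3 ratio comparisons), and p = 0.6 between HG-Res and HG.

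**Figure D4:**
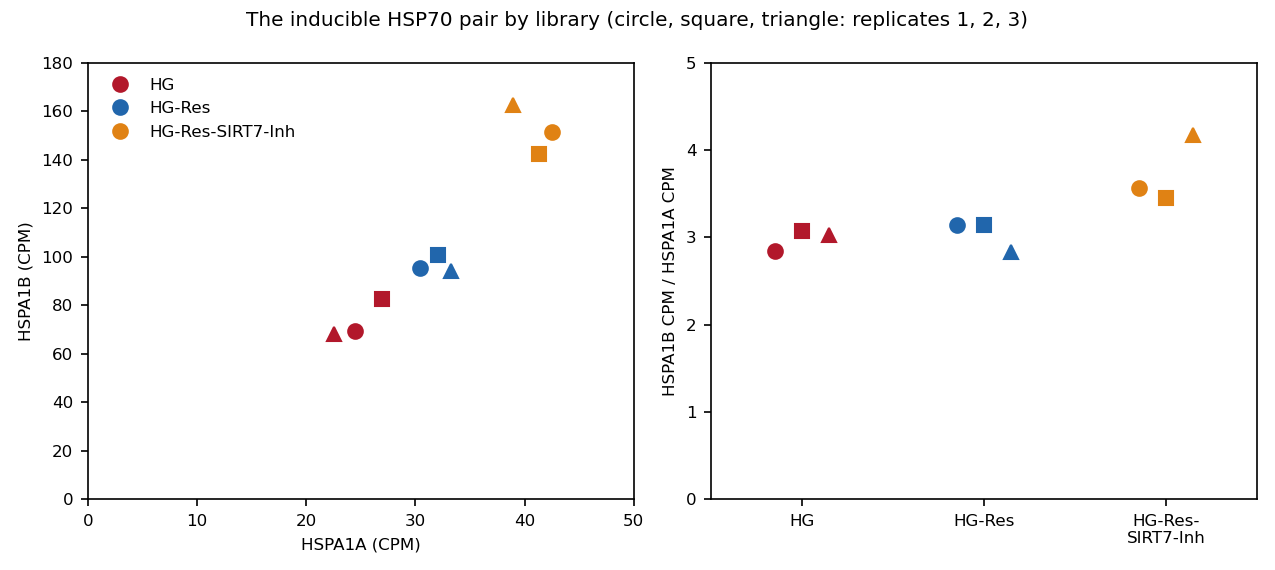
Left, HSPA1B against HSPA1A in CPM, each symbol 1 library (shape for replicate, colour for group); right, their ratio by group. The 3 groups occupy separate ranges of both genes on the left, and the ratio is 3.45 to 4.18 in HG-Res-SIRT7-Inh against 2.83 to 3.14 in the other libraries.

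DNAJB1 did not overlap between HG-Res-SIRT7-Inh and HG either, with a log2 change of 0.34 ± 0.11 that missed the threshold (limma adjusted p = 0.076) and passed without HG-Res-SIRT7-Inh replicate 3 (0.00732, change 0.42). With HSPA1A and HSPA1B it made 3 members with no overlap, against 28.1% of all genes (12.8% higher and 15.3% lower). HSPA8 overlapped between these groups, at 2078 ± 149 CPM against 2044 ± 23.4 CPM (SD, n = 3), with a 95% interval of the log2 change from -0.15 to 0.19. In order of its means HSPA8 ran Ctrl, HG, HG-Res-SIRT7-Inh and HG-Res, with overlap between the middle pair. The log2 difference was -0.01 for HSF1 with a 95% interval of -0.43 to 0.42, -0.02 for HSP90AA1 (-0.54 to 0.5) and 0.01 for HSPD1 (-0.29 to 0.3).

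Without HG-Res-SIRT7-Inh replicate 3 the count in this last comparison was 4, against 21.1% of all genes, with DNAJB1 higher and HSP90AA1 lower (log2 change -0.35, limma adjusted p = 0.0393) beside the HSP70 pair. With the same 7 libraries the count was 6, against 31% of all genes. HSF1 was also higher (0.33, limma adjusted p = 0.0054) and HSPD1 also lower (-0.20, limma adjusted p = 0.0366). The libraries left out held the highest HG and lowest HG-Res-SIRT7-Inh values of HSF1 (128.02 and 79.23 CPM), and likewise of HSPA1A and DNAJB1. They also held the lowest HG and highest HG-Res-SIRT7-Inh values of HSP90AA1 (1141.89 and 1999.89 CPM) and HSPD1 (591.64 and 791.45 CPM). With all libraries the changes were -0.01 for HSF1, -0.02 for HSP90AA1 and 0.01 for HSPD1. Without HG replicate 2 alone the change of HSF1 was 0.09 (limma adjusted p = 0.845). The median log2 change of the 10 genes was 0.015 and that of all genes 0.038, with 6 of 10 higher against 54.6% of all genes.

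**Figure D5:**
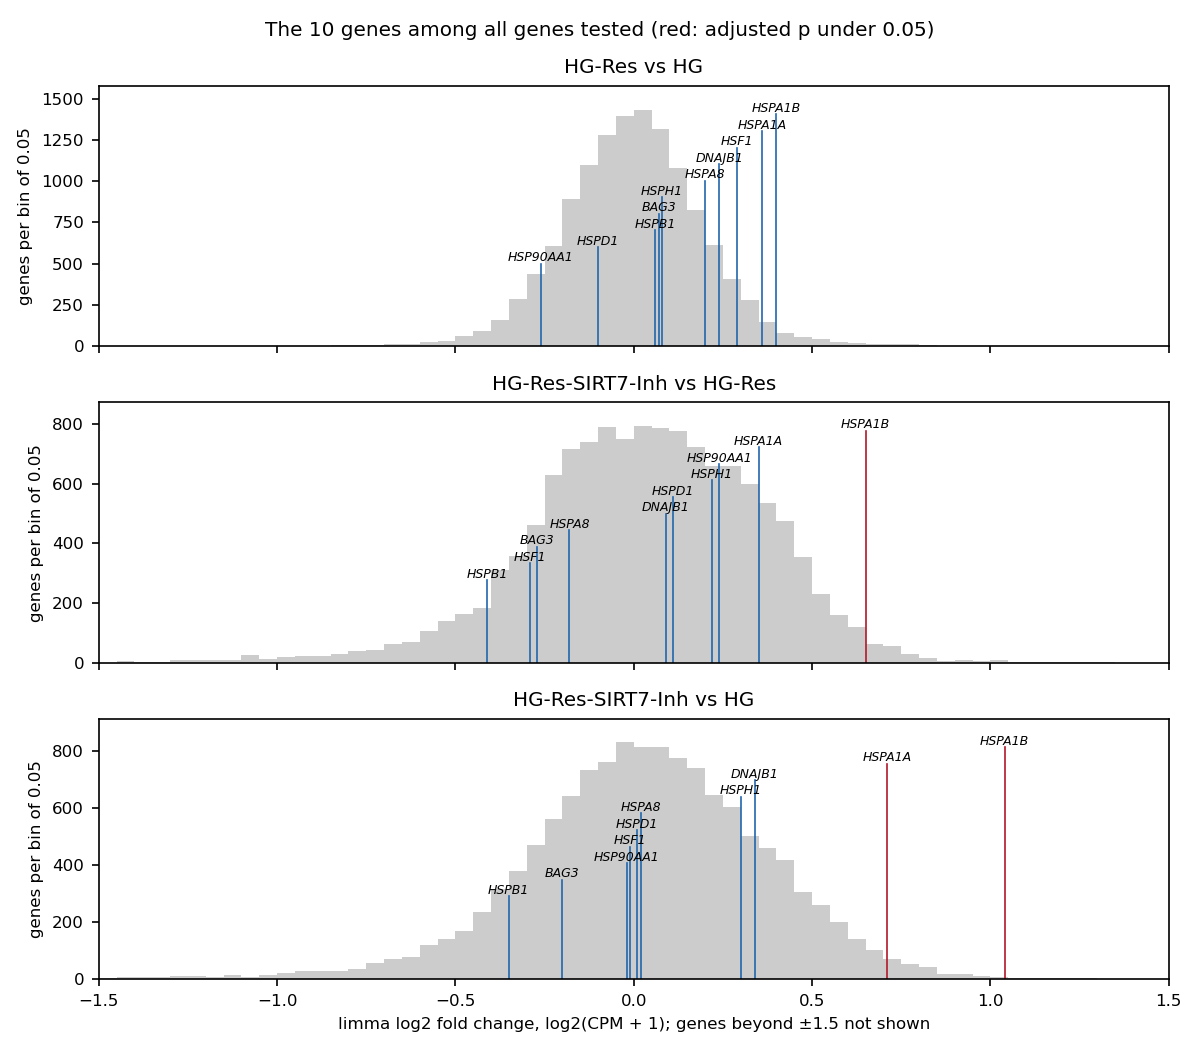
Number of genes (vertical axes) by log2 fold change (horizontal axes, bins of 0.05) over the 12854 genes tested (those beyond 1.5 in size are not shown), with lines at the values of the 10 members; line height only separates the names, and red lines passed an adjusted p of 0.05. HSPA1B at 1.04 and HSPA1A at 0.71 lie in the upper tail of the lowest panel, while the other members lie among the bulk of genes.

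By pattern over the 9 high-glucose libraries, the genes outside the set most like DNAJB1, on centred log2(CPM + 1) values, were ENSG00000173064 and ENSG00000197386. Both lay at a root-mean-square difference of 0.024 from DNAJB1, where the median gene lay at 0.268. They were picked as the nearest by this same measure, so the distance is a description and tests nothing.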

How the data were processed

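Per the labels' protocols, poly(A) RNA of 12 cultures was sequenced as paired reads on an Illumina NovaSeq. Per the submitters' processing notes, Trimmomatic and build rn6 were used; for aligner, counting tool, annotation, strand and the authors' test, the answer is: not given in the sources used here. The deposited values are headed TPM but are CPM, since in each library at least 99.1% of the values below 5 lie within the rounding (0.005) of a multiple of 1 step, 0.0302 to 0.033, from which the depth was taken. The authors also deposited p-values, q-values and log2 fold changes per gene for 4 comparisons.

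The members and gene lists were chosen with earlier results of these data known. The 12854 genes that reached 0.5 CPM in 3 or more libraries in high glucose were fitted as log2(CPM + 1) in limma 3.58.1 (R 4.3.3). One model held the means of these 3 groups, with the prior variance following intensity; p-values were adjusted by Benjamini-Hochberg with a threshold of 0.05. Fold changes stand on the log2(CPM + 1) scale, which understates those of low genes. The fit was tested on counts simulated with the same extra spread in every gene and group, so that test does not cover the unequal spread seen here. All 10 members were to be named, with the 2 genes most like DNAJB1. A wider chaperone list and cell type markers, fixed by symbol, were not analysed here because no table paired them with identifiers. A count model was not used, since whole reads could not be recovered from the deposited values. P-values measure the spread between samples labelled biological replicates. Replicate numbers are shared between groups, but same-numbered libraries correlated from -0.55 to 0.64 in their deviations from the group means, so the numbers were not treated as pairs. Alternatives were pseudocount, scaling, filter, groups in the fit, replicate block, the authors' q-values, left-out libraries and the summed HSP70 pair.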

Additional observations from a re-analysis of the deposited data

How the results depend on the processing

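HSPA1A and HSPA1B kept their direction and their calls against HG in HG-Res-SIRT7-Inh under every alternative run. The count of genes called over the whole table with HG-Res against HG was 91, 596 with these 2 groups alone, 45 with the replicate block, 1091 by the authors' q-values, and 19 to 801 when 1 library was left out. With HG-Res-SIRT7-Inh against HG-Res it was 780, 414 with 2 groups alone and 276 to 1778 with 1 library out. With HG-Res-SIRT7-Inh against HG it was 1385, 420 with 2 groups alone and 549 to 2717 with 1 library out. With 1 library out, the highest counts came without HG-Res-SIRT7-Inh replicate 3, 1 and 3 in turn. With 7 libraries (HG-Res-SIRT7-Inh replicate 3 and also HG replicate 2 left out) the counts were 2722, 2412 and 3991, and the members called 5, 3 and 6. Members called were 0, 1 and 2 in the same order, also with the replicate block; the authors' q-values gave 2 in the first, and leaving out 1 library gave 0 to 2, 0 to 2 and 2 to 4. The cause of these moves was not tested.

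Some members changed sign or moved. With the 7 libraries, HSPH1 was at -0.022 in HG-Res against HG. In HG-Res-SIRT7-Inh against HG-Res, HSPH1 was at -0.15, HSP90AA1 at -0.089 and HSPD1 at -0.056. Against HG, HSF1 was at 0.33, HSPH1 at -0.17, HSP90AA1 at -0.43, HSPB1 at 0.052, HSPA8 at -0.027 and HSPD1 at -0.20. The authors' values there were 0.0075 for HSF1 and 0.050 for HSP90AA1, and median-of-ratios scaling gave -0.00071 for HSPD1. With 1 library out, HG-Res against HG ran from -0.022 to 0.18 for HSPH1 and from -0.0069 to 0.19 for HSPB1. HG-Res-SIRT7-Inh against HG-Res ran from -0.15 to 0.49 for HSPH1, -0.089 to 0.46 for HSP90AA1 and -0.056 to 0.20 for HSPD1. Against HG it ran from -0.15 to 0.24 for HSF1, -0.07 to 0.57 for HSPH1, -0.35 to 0.20 for HSP90AA1, -0.51 to -0.075 for HSPB1, -0.018 to 0.081 for HSPA8 and -0.16 to 0.10 for HSPD1.

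The replicate block moved no member across the threshold. A count test was not run because whole reads could not be recovered, and library weights gave no value because their estimate did not converge. At depths of 30.29 to 33.17 M reads, the number of cultures limits the tests: with 3 a group, an exact permutation test cannot go below 0.1.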
